A study of Mus musculus with 30 samples.

Results

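The comparison set CD4+CD25+ T cells of the mesenteric lymph nodes, which drain the gut, against CD4+CD25+ T cells of peripheral lymph nodes. It held 8 of the 30 arrays of the series, chosen by their titles: 5 mesenteric and 3 peripheral. All cells came from NOD mice, a strain that develops autoimmune diabetes, transgenic for the BDC2.5 T cell receptor, and were labelled as 4 weeks old. The BDC2.5 receptor recognizes an islet antigen, and most T cells of these mice carry this transgenic receptor. Cells were sorted by flow cytometry, and RNA was hybridized to one-colour Affymetrix mouse arrays (MG-U74Av2). The mesenteric CD4+CD25- cells (3 arrays) and the peripheral CD4+CD25- cells (3 arrays) of the same transgenic strain and age served to ask whether a site difference was shared by the other CD4+ cells. The labels do not say which peripheral nodes were taken, whether nodes of several mice were pooled, or whether each replicate was another animal. The p-values therefore cover the spread between these samples, which may be technical.

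CD25 is the alpha chain of the interleukin-2 receptor, and in unimmunized mice most CD4+ T cells that carry it are regulatory T cells, which restrain other lymphocytes. Lymphocytes in a node receive cytokines made there. Type I interferon, bound by a receptor present on nearly all cells, switches on a set of antiviral genes, many of which carry a DNA element named the interferon-stimulated response element. Cells that leave mesenteric nodes can carry gut-homing receptors that vitamin A derivatives induce, and cells of peripheral nodes can carry receptors for inflamed tissue or skin.

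Some labels disagreed with each other. The tissue field read mesenteric on every peripheral array, while titles and source names said peripheral. The source name of mesenteric CD25+ replicate 2 gave the CD25- sort. Groups follow the titles. Il2ra, which encodes CD25, had a log2 intensity of 5.58, 5.50, 6.23, 5.67 and 5.34 in mesenteric CD25+ cells, against 5.32, 5.42 and 5.60 in peripheral CD25+ cells. It lay between 4.08 and 4.11 in mesenteric CD25- cells and between 3.99 and 4.29 in peripheral CD25- cells. The replicate with the conflicting source name thus had a level within the range of the other CD25+ arrays. Cd4 averaged 6.58 ± 0.14 in mesenteric CD25+ cells (SD, n = 5) and 6.23 ± 0.23 in peripheral CD25+ cells (SD, n = 3), and Cd3e, a chain of the T cell receptor complex, averaged 8.17 ± 0.28 in mesenteric (SD, n = 5) and 8.01 ± 0.08 in peripheral CD25+ cells (SD, n = 3). Neither passed the test. Foxp3, the defining factor of regulatory T cells, was not analysed here.

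The 14 lymph node arrays had median intensities between 25.3 and 27.1, a span of 0.0972 on the log2 scale. The log2 actin 3'/5' ratio, a sign of RNA quality, averaged 2.85 ± 0.185 in mesenteric CD25+ cells (SD, n = 5) and 3.02 ± 0.27 in peripheral CD25+ cells (SD, n = 3), with an exact two-sided permutation p of 0.339 over 56 splits and an adjusted p of 0.679 over 2 ratios. The Gapdh ratio averaged 3.44 ± 0.285 in mesenteric and 3.38 ± 0.164 in peripheral CD25+ cells (SD, n = 5 and n = 3, exact permutation p = 0.75). Peripheral replicate 1 stood apart, with a mean correlation of 0.969 with the other CD25+ arrays across probe sets, against 0.980 to 0.985 for the others, and with the highest actin ratio of the 8 arrays at 3.30. The array numbers in the labels fell into a lower-numbered and a higher-numbered run, and both groups had arrays in each: mesenteric replicates 1 and 2 and peripheral replicates 1 and 2 in the lower, the remaining 3 mesenteric arrays and peripheral replicate 3 in the higher.

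Few differences between the 2 sites passed the test. Of 12422 probe sets tested, 9 passed an adjusted p of 0.05 (0.0725%), 7 higher in mesenteric cells (0.0564%) and 2 lower (0.0161%), in limma with Benjamini-Hochberg adjustment. Of the 7 that rose, 6 measure genes of the type I interferon response: Ifit1, Ifit3, Usp18, Isg15, Mx1 and Ifih1. The remaining one is assigned to Gm9706, a RefSeq pseudogene. The 2 that fell measure Eomes, a transcription factor of cytotoxic and memory T cells, and Scd2, a fatty acid desaturase. The median difference over all probe sets was -0.00656 on the log2 scale, with an interquartile range from -0.0884 to 0.0835, and 21 probe sets differed by more than 2-fold, 7 of them among the 9. At an unadjusted p under 0.05, 532 probe sets passed (4.28%), 262 higher (2.11%) and 270 lower (2.17%) in mesenteric cells. All 5 mesenteric arrays lay above all 3 peripheral arrays for 164 probe sets (1.32%) and below them for 131 (1.05%).

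**Figure D1:**
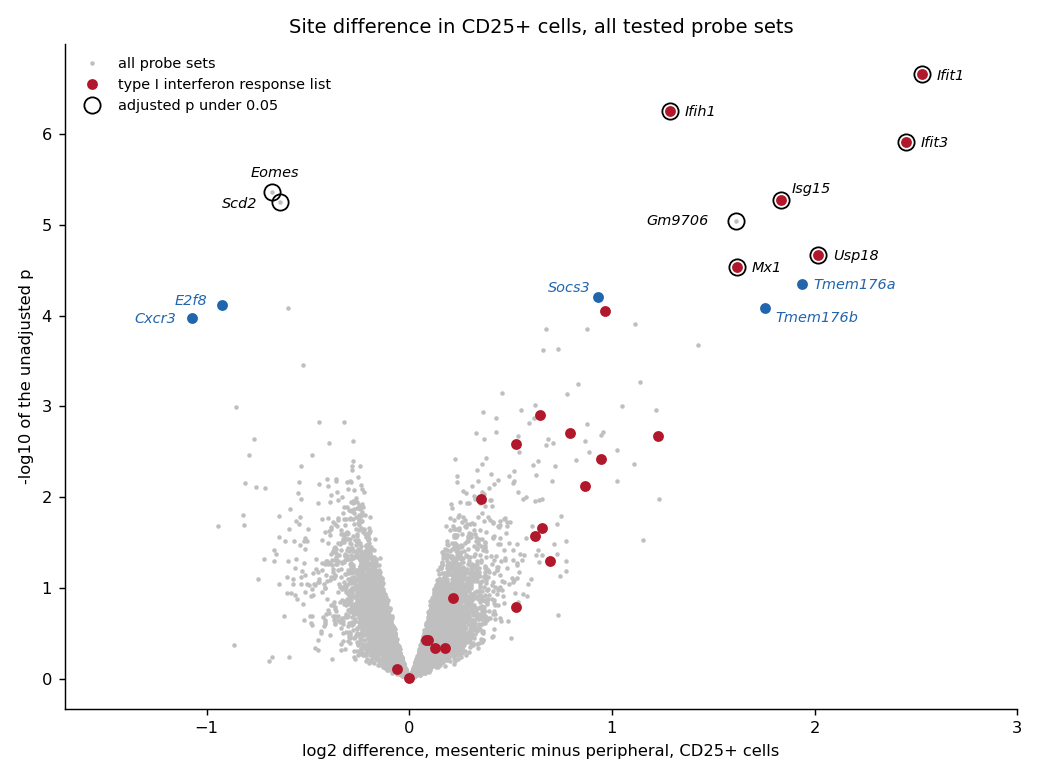
Each point is one of the 12422 probe sets, with the log2 difference of mesenteric minus peripheral CD25+ cells on the horizontal axis and -log10 of the unadjusted limma p on the vertical axis. The 9 circled probe sets have an adjusted p under 0.05, and the filled red points are the 25 measured members of the type I interferon response list, 23 of them to the right of 0. The 5 blue points, Tmem176a, Tmem176b, Socs3, E2f8 and Cxcr3, lie near the circled ones and did not pass.

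The promoters of 3 of the genes that rose are shown so that the element through which type I interferon acts can be looked up in them. The RefSeq windows (GRCm38.p6) run from 250 bases before to 50 after the start of the gene, in the direction of transcription. Capitals mark 2 copies of GAAA with any 2 bases between them, on either strand, which is the core of the interferon-stimulated response element.
Ifit1, chr19:34640639-34640938, plus strand: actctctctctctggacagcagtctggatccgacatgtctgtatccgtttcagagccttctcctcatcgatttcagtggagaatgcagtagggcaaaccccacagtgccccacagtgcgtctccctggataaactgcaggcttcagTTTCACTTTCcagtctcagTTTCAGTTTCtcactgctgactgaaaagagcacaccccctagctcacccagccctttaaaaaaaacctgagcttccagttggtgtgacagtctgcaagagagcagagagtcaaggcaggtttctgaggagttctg
Ifit3, chr19:34583279-34583578, plus strand: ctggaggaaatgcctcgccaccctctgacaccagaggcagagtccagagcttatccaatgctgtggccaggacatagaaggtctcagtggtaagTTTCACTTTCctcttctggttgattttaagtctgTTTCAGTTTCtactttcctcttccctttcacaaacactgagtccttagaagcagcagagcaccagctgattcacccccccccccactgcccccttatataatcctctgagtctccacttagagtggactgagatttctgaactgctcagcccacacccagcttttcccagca
Isg15, chr4:156200769-156201068, minus strand: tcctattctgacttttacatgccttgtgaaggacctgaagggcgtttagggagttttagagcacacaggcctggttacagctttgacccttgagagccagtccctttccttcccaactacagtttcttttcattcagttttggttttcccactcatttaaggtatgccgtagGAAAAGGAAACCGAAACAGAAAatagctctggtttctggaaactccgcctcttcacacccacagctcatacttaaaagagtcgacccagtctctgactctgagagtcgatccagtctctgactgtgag
Ifit1 and Ifit3 hold the motif on the opposite strand at 2 places each, and Isg15 holds 3 matches that overlap each other. A window was found for 5 of the 9 genes past the threshold (Ifit1, Ifit3, Isg15, Ifih1 and Eomes), and all 5 held the motif, Eomes among them although it fell. Of the type I interferon list, 19 of 25 measured genes had a window and 10 of these held the motif (52.6%). Of the 6576 genes with a probe set of their own and a window, 256 held it (3.89%), and of all 32851 windows 1131 did (3.44%). A match describes these letters and does not show a bound site.

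Among the interferon-induced genes, Ifit1 and Ifit3, which encode tetratricopeptide proteins that bind viral RNA or assist in that, had the largest differences. Ifit1 had log2 intensities of 7.49, 7.69, 7.10, 7.65 and 7.37 in mesenteric CD25+ cells, against 4.49, 4.46 and 5.84 in peripheral CD25+ cells. All mesenteric arrays lay above all peripheral ones, and the peripheral array of the higher-numbered run, replicate 3, was well above the other two. The log2 difference was 2.53 (SE 0.27, adjusted p = 0.00272 in limma), a 5.78-fold higher level in mesenteric cells. Ifit3 had 6.54, 7.19, 6.81, 6.13 and 6.06 in mesenteric cells, against 3.85, 3.84 and 4.60 in peripheral cells. The groups did not overlap, and the log2 difference was 2.45 (SE 0.30, adjusted p = 0.00501 in limma).

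Isg15 encodes a ubiquitin-like protein that is attached to other proteins, and Usp18 the protease that removes it and dampens the interferon receptor. Isg15 had 8.17, 8.73, 7.59, 7.71 and 7.66 in mesenteric cells, against 5.94, 5.83 and 6.65 in peripheral cells, and the log2 difference was 1.83 (SE 0.26, adjusted p = 0.0117 in limma). Usp18 had 8.23, 8.64, 9.15, 8.06 and 8.33 in mesenteric cells, against 6.35, 5.65 and 7.40 in peripheral cells, and the log2 difference was 2.02 (SE 0.32, adjusted p = 0.0334 in limma). Both genes kept the groups apart, and in both the highest peripheral array was again replicate 3. Gm9706, whose probe set carries the suffix that Affymetrix gives to probes shared by a gene family, had 5.42, 5.76, 4.65, 5.15 and 5.08 in mesenteric cells, against 3.46, 3.23 and 4.10 in peripheral cells, and the log2 difference was 1.61 (SE 0.24, adjusted p = 0.0163 in limma). Which transcript this probe set reads cannot be settled from the files.

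Mx1 encodes an antiviral GTPase, and Ifih1 the cytoplasmic sensor of long double-stranded RNA. Mx1 had 5.14, 6.09, 5.54, 5.13 and 5.36 in mesenteric cells, against 3.53, 3.48 and 4.50 in peripheral cells, and the log2 difference was 1.62 (SE 0.26, adjusted p = 0.0400 in limma). Ifih1 had 7.52, 8.03, 7.56, 7.53 and 7.57 in mesenteric cells, against 6.37, 6.13 and 6.55 in peripheral cells, and the log2 difference was 1.29 (SE 0.15, adjusted p = 0.00346 in limma). The 5 mesenteric Ifih1 values were close together apart from replicate 2, and neither gene had overlapping groups.

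**Figure D2:**
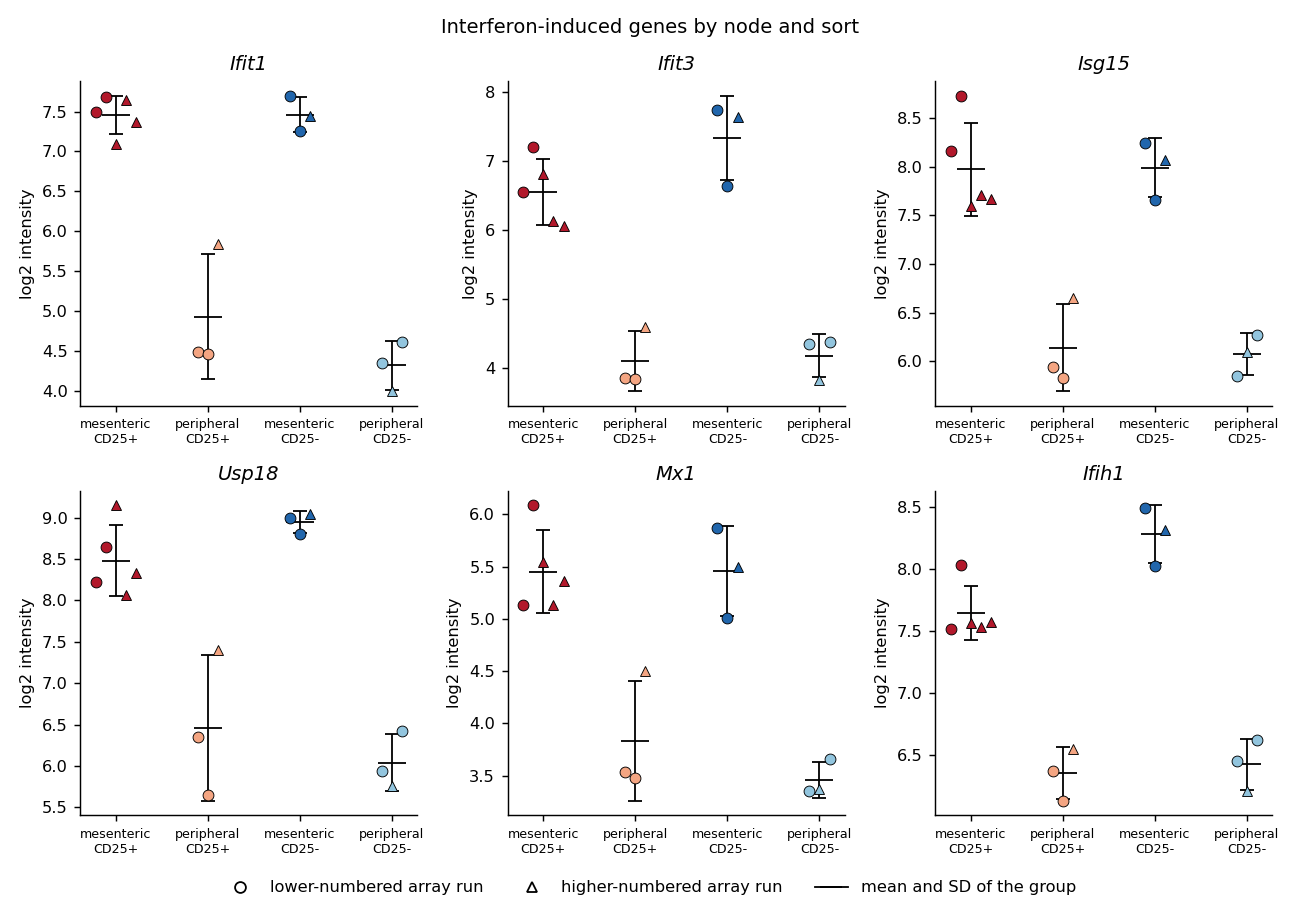
Log2 intensity of 6 interferon-induced genes on each array, by node and sort, with circles for the lower-numbered and triangles for the higher-numbered array run and with the group mean and SD. All mesenteric arrays lie above all peripheral arrays within each sort, and the highest peripheral CD25+ array is replicate 3, the triangle.

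These calls differed in how often they passed when the fit was changed or an array left out. Ifit1 passed under all 18 alternative fits, Ifih1 under 17 of 18, Ifit3 under 16 of 18, Isg15 under 14 of 18, Gm9706 under 11 of 17 and Usp18 under 10 of 18. Mx1 passed in 4 of 17 and was lost both with single arrays left out and under other fits of all arrays, such as quantile normalization. With 1 array left out the log2 difference stayed between 1.61 and 2.49 for Usp18 and between 1.44 and 1.95 for Mx1. Without mesenteric replicate 2, whose source name conflicts with its title, 7 probe sets passed, and Usp18 and Mx1 did not. Without peripheral replicate 2 only 2 passed, Ifit1 and Ifih1, and without peripheral replicate 1 5 passed. Without peripheral replicate 3 21 passed, 16 higher and 5 lower in mesenteric cells, and the median of the interferon list was 0.879. Within the lower-numbered run the log2 difference was 3.12 for Ifit1, 3.02 for Ifit3 and 2.56 for Isg15. Within the higher-numbered run, which holds 1 peripheral array and so allows no test, it was 1.54 for Ifit1, 1.74 for Ifit3 and 1.01 for Isg15.

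Over the whole type I interferon list, 25 of 41 genes were measured, 6 rose, none fell and 19 did not pass. Of the 25, 23 had a positive difference, against 47.7% of all probe sets, and the median was 0.655 on the log2 scale, against -0.00656 over all probe sets. For 10 of the 25 all mesenteric arrays lay above all peripheral arrays, against 1.32% of all probe sets. The mean log2 intensity of the 25 was 6.27, 6.54, 6.43, 6.33 and 6.36 in mesenteric cells, against 5.31, 5.38 and 5.92 in peripheral cells, and replicate 3 was the closest of the peripheral arrays to the mesenteric ones. The list and these genes were chosen with earlier results of the same arrays known, so the count is a description.

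Among the members that did not pass, Mx2, a second Mx GTPase, had a difference of 0.97 (adjusted p = 0.0737 in limma), with 4.33, 4.90, 4.95, 4.81 and 4.74 in mesenteric cells, against 3.42, 3.74 and 4.17 in peripheral cells. Its groups did not overlap. Rsad2, which encodes viperin, had a difference of 0.87, Lgals3bp, a secreted glycoprotein, 0.65, and Irf7, the transcription factor that amplifies interferon production, 0.53. These 3 also kept the groups apart, at adjusted p-values of 0.914, 0.459 and 0.588. Isg20, an exonuclease, had a difference of 1.23 with overlapping groups, since peripheral replicate 3 had 7.75, against 5.79 and 6.79 in the other two peripheral arrays and 7.69 to 8.27 in mesenteric cells. Without that array Isg20 passed (difference 1.72, adjusted p = 0.0196 in limma). Ifitm3, which blocks virus entry, had 0.95, Ifi204, a DNA-binding protein of the interferon-inducible p200 family, 0.79, and Ifit2 0.66, none past the threshold. Outside the list, Cmpk2, a mitochondrial nucleotide kinase coded beside Rsad2, had a difference of 1.11 (adjusted p = 0.0906), while its second probe set gave 0.31 (adjusted p = 0.972 in limma). Daxx, a chromatin adaptor and also outside the list, had 0.88 (adjusted p = 0.0917). These genes and the members that did not pass were named after their values were seen.

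Genes induced by interferon gamma showed less. Of 22 measured, none passed, and 5 were higher at an unadjusted p under 0.05, against 2.11% of all probe sets. A positive difference was found for 17, against 47.7% of all probe sets, and the median was 0.154. Socs1, an inhibitor of cytokine signalling, had 6.27, 6.02, 6.34, 6.14 and 5.89 in mesenteric cells, against 5.35, 5.68 and 5.74 in peripheral cells (difference 0.54, adjusted p = 0.677 in limma). Ifi47, a GTPase of the immunity-related family, had a difference of 0.37 with groups that did not overlap (adjusted p = 0.972). The list median changed sign to -0.131 within the higher-numbered run and was 0.416 without peripheral replicate 3.

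**Figure D3:**
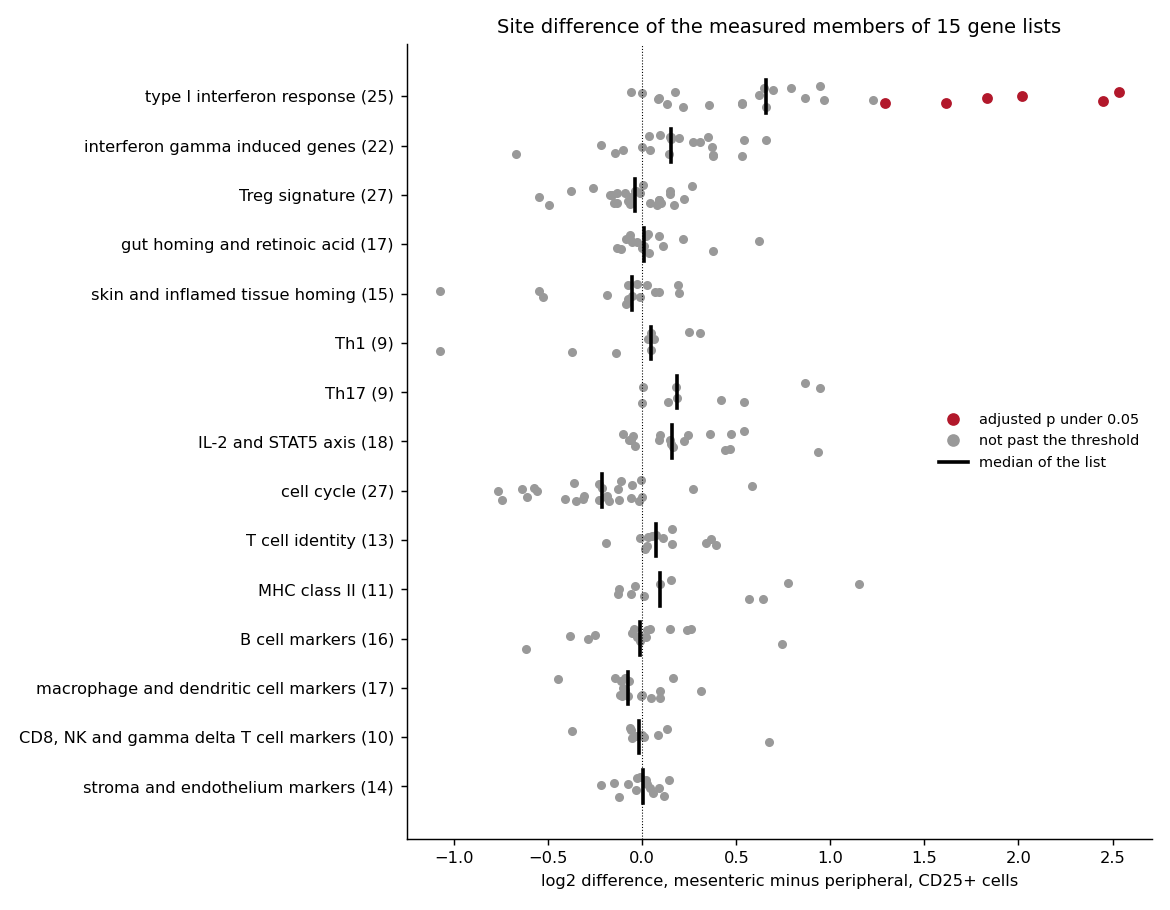
Each point is a measured gene of one of 15 gene lists, placed by its log2 difference of mesenteric minus peripheral CD25+ cells, with the number of measured genes in parentheses and a bar at the list median. Each gene is drawn by its brightest probe set, so the Eomes probe set that passed is not shown. Only the type I interferon list among these 15 has drawn members past the threshold, 6 of 25 in red. Its median of 0.655 lies to the right of the others.

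The 2 sites were also compared in CD25- cells, on other arrays but in the same fit, so that both comparisons share one estimate of the spread. There 56 probe sets passed (0.451%), 26 higher (0.209%) and 30 lower (0.242%) in mesenteric cells, and 522 passed an unadjusted p of 0.05 (4.2%). All 9 probe sets of the CD25+ comparison were among them with the same sign, which is 100% of the CD25+ calls and 16.1% of the CD25- calls, and 51 of the 56 had the same sign in CD25+ cells (91.1%). The interferon list had 10 members past the threshold in CD25- cells, none lower, 23 of 25 positive against 45.9% of all probe sets, and a median of 0.959. Ifit1 had a difference of 3.15 (adjusted p = 1.54e-04 in limma), Ifit3 3.16 (adjusted p = 4.06e-04) and Usp18 2.91 (adjusted p = 0.00136). For the 6 interferon genes past the threshold in both sorts, the difference in CD25+ cells minus that in CD25- cells ran from -0.89 for Usp18 to -0.09 for Isg15, and none passed (adjusted p = 0.99965 each in limma). The 95% interval for Ifit1 was -1.48 to 0.25, which holds both a smaller difference in CD25+ cells and no difference. For Ifih1 the interval was -1.04 to -0.09 at an unadjusted p of 0.0236.

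**Figure D4:**
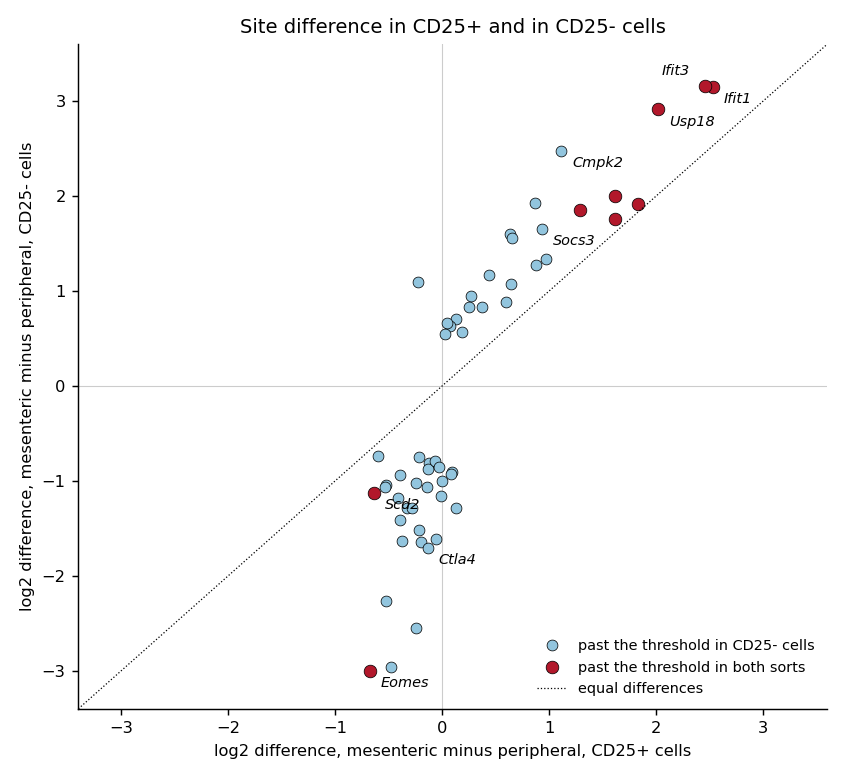
The 56 probe sets past the threshold in CD25- cells, with their log2 difference of mesenteric minus peripheral node in CD25+ cells on the horizontal axis and in CD25- cells on the vertical axis. The 9 probe sets past the threshold in both sorts are red, Ifit1 and Ifit3 lie near 2.5 and 3.2, and Eomes lies at -0.68 in CD25+ cells against -3.0 in CD25- cells.

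Eomes gave the only site difference that itself passed as differing between the sorts, on its dimmer probe set. Its probe set with the larger change had 2.45, 2.5, 2.39, 2.56 and 2.53 in mesenteric CD25+ cells, against 2.90, 3.27 and 3.31 in peripheral CD25+ cells, and the log2 difference was -0.68 (SE 0.09, adjusted p = 0.0117 in limma). These levels lie well below the array medians of about 4.7 on the log2 scale. In CD25- cells it had 2.56, 2.60 and 2.59 in mesenteric nodes, against 5.63, 5.50 and 5.62 in peripheral nodes (difference -3.0, adjusted p = 1.26e-09). The difference between the sorts was 2.32 (SE 0.14, adjusted p = 1.93e-06 in limma), the only one of 12422 past the threshold (0.00805%), against 382 at an unadjusted p under 0.05 (3.08%). The other Eomes probe set, which is the brighter, had a difference of -0.38 in CD25+ cells that did not pass (adjusted p = 0.972) and -1.63 in CD25- cells that did (adjusted p = 6.88e-04). On that brighter probe set the difference between the sorts, 1.26, did not pass (adjusted p = 0.322 in limma). Ctla4, the inhibitory receptor of regulatory T cells, came next, with 7.06, 6.68, 7.24, 6.69 and 7.02 in mesenteric CD25+ cells, against 7.17, 7.02 and 7.02 in peripheral CD25+ cells. Its site difference was -0.13 in CD25+ cells and -1.71 in CD25- cells, and the difference between the sorts, 1.57, missed the threshold (adjusted p = 0.0564 in limma). In bulk RNA, fewer cells with a transcript and less transcript per cell cannot be told apart.

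Scd2, the other gene that fell, had 6.61, 6.58, 6.75, 6.60 and 6.47 in mesenteric CD25+ cells, against 7.30, 7.31 and 7.12 in peripheral CD25+ cells. The groups were far apart relative to their spread, with a log2 difference of -0.64 (SE 0.09, adjusted p = 0.0117 in limma), and the second Scd2 probe set gave -0.60 (adjusted p = 0.0732). In CD25- cells the difference was -1.13 (adjusted p = 1.10e-04). Scd2 and Eomes each passed in 11 of the alternative fits, of 18 for Scd2 and 17 for Eomes, and lost the threshold when the 8 CD25+ arrays were fitted alone.

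Several genes outside the interferon list came close to the threshold, among them those with the smallest p-values. Tmem176a and Tmem176b, neighbouring genes for membrane proteins found in dendritic cells and in lymphocytes with the factor RORgt, had the largest differences among them. Tmem176a had 8.20, 8.66, 7.72, 9.58 and 8.03 in mesenteric CD25+ cells, against 6.05, 7.10 and 6.35 in peripheral CD25+ cells (difference 1.94, SE 0.33, adjusted p = 0.0557 in limma). Tmem176b had 9.64, 10.41, 9.19, 10.81 and 9.35 in mesenteric cells, against 7.80, 8.68 and 7.90 in peripheral cells (difference 1.75, SE 0.32, adjusted p = 0.0732 in limma). Neither gene had overlapping groups, and their site differences in CD25- cells were -0.10 and 0.20. Tmem176a passed without mesenteric replicate 4, its highest array, with a difference of 1.65 (adjusted p = 0.0176 in limma), and had a difference of 1.71 without peripheral replicate 1 (adjusted p = 0.351).

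Ccr6, a chemokine receptor of Th17 cells, B cells and group 3 innate lymphoid cells, had 9.34, 9.55, 9.31, 10.56 and 9.47 in mesenteric cells, against 8.33, 9.10 and 8.68 in peripheral cells (difference 0.95, adjusted p = 0.566 in limma). Il1r1, the interleukin-1 receptor, had 5.50, 5.45, 4.82, 6.15 and 5.0 in mesenteric cells, against 4.62, 4.57 and 4.36 in peripheral cells (difference 0.87, adjusted p = 0.579). Klrb1b, a killer cell lectin-like receptor, was chosen after its values were seen and had a difference of 1.14 (adjusted p = 0.282). All 3 kept the groups apart, with differences of -0.13, 0.04 and -0.04 in CD25- cells. Stat3, through which interleukin-6 and interleukin-23 signal, differed by 0.54 (adjusted p = 0.566). Of the 9 measured genes of the Th17 list, none passed, 3 were higher at an unadjusted p under 0.05 (2.11% of all probe sets) and 8 had a positive difference (47.7% of all probe sets), with a median of 0.187.

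Some genes of MHC class II and some other markers moved with these on single arrays. Of the 11 measured MHC class II genes, 7 had a positive and 4 a negative difference (median 0.0956). Of the 16 measured B cell genes, 7 had a positive and 9 a negative one (median -0.0116). Of all probe sets, 47.7% were positive, and no member of either list passed. H2-Aa had 8.71, 9.06, 8.51, 9.65 and 8.69 in mesenteric CD25+ cells, against 6.95, 8.63 and 7.73 in peripheral CD25+ cells (difference 1.15, adjusted p = 0.972 in limma). H2-Eb1 differed by 0.77 and Cd74, the invariant chain of MHC class II, by 0.64, both with overlapping groups. Mesenteric replicate 4 was the highest array for Tmem176a, Tmem176b, Ccr6, Il1r1, H2-Aa, H2-Eb1 and Cd74. For Blk, a kinase of B cells and some innate-like T cells, it was highest on the brighter probe set, at 6.11, against 6.03 on mesenteric replicate 2. On the other Blk probe set it was the lowest mesenteric array, at 3.80. Peripheral replicate 2 was the highest peripheral array for Tmem176a, Tmem176b, Ccr6, H2-Aa, H2-Eb1 and Blk. The 11 MHC class II genes summed to between 1067 and 2327 intensity units in mesenteric cells and between 736.5 and 1292 in peripheral cells. The 16 B cell genes summed to between 1009 and 1310 in mesenteric cells and between 825.7 and 1431 in peripheral cells, and the 17 macrophage and dendritic cell genes to between 1324 and 1667 in mesenteric cells and between 1293 and 1875 in peripheral cells. Ms4a1, which encodes CD20 of B cells, had its highest value on peripheral replicate 2, at 7.83. The 13 T cell genes summed to between 3465 and 5532 in mesenteric cells and between 2736.4 and 5846 in peripheral cells. The 5 erythroid genes summed to between 180.6 and 785.5 in mesenteric cells and between 228.2 and 3141 in peripheral cells. The 3141 was on peripheral replicate 2, against 228.2 on replicate 1 and 285.6 on replicate 3. The part of such cells in the results was not tested. Prss2, a trypsinogen of the pancreas, had 5.89 on mesenteric replicate 4, against 3.84 to 4.54 on the other mesenteric arrays and 3.56 to 4.05 on the peripheral arrays. Of the 10 measured pancreas genes, 5 had a positive and 5 a negative difference, and none passed. Their sum on mesenteric replicate 4 was 420, within the 403.4 to 452.3 of the mesenteric arrays.

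The list of CD8, NK and gamma delta T cell markers summed to between 1237 and 1426 in mesenteric cells and between 844.5 and 1016 in peripheral cells, which did not overlap. Most of that gap lay in Trgv1, a variable segment of the T cell receptor gamma chain, with 9.98, 10.001, 9.93, 9.95 and 10.19 in mesenteric CD25+ cells, against 9.27, 9.14 and 9.59 in peripheral CD25+ cells. Its difference was 0.67 (adjusted p = 0.0917 in limma). In CD25- cells it lay between 5.39 and 5.82 in mesenteric nodes and between 5.11 and 5.51 in peripheral nodes. None of the 10 measured members passed when each gene was represented by its brightest probe set. Eomes is a member, and its dimmer probe set passed, as given above.

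Among genes of tissue homing, few came near the threshold. Cxcr3, the chemokine receptor of Th1 cells and of regulatory T cells that enter inflamed tissue, had 5.87, 5.83, 6.23, 6.07 and 6.40 in mesenteric CD25+ cells, against 6.66, 7.05 and 7.74 in peripheral CD25+ cells. Every mesenteric value was below every peripheral one, and the difference was -1.07 (SE 0.20, adjusted p = 0.0820 in limma). With the array-number run as a block it was -1.19 and passed (adjusted p = 0.00456). In CD25- cells Cxcr3 differed by -0.83, which did not pass (adjusted p = 0.281 in limma). Its difference between the sorts, -0.24, did not pass. Itgb1, the beta 1 integrin, had a difference of -0.53 in CD25+ cells (adjusted p = 0.189) and -1.05 in CD25- cells (adjusted p = 0.00103). Of the 15 measured genes of skin and inflamed tissue homing, none passed. A negative difference was found for 10 and a positive one for 5, against 47.7% positive of all probe sets, and the median was -0.0556. In CD25- cells 8 of the 15 were positive.

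**Figure D5:**
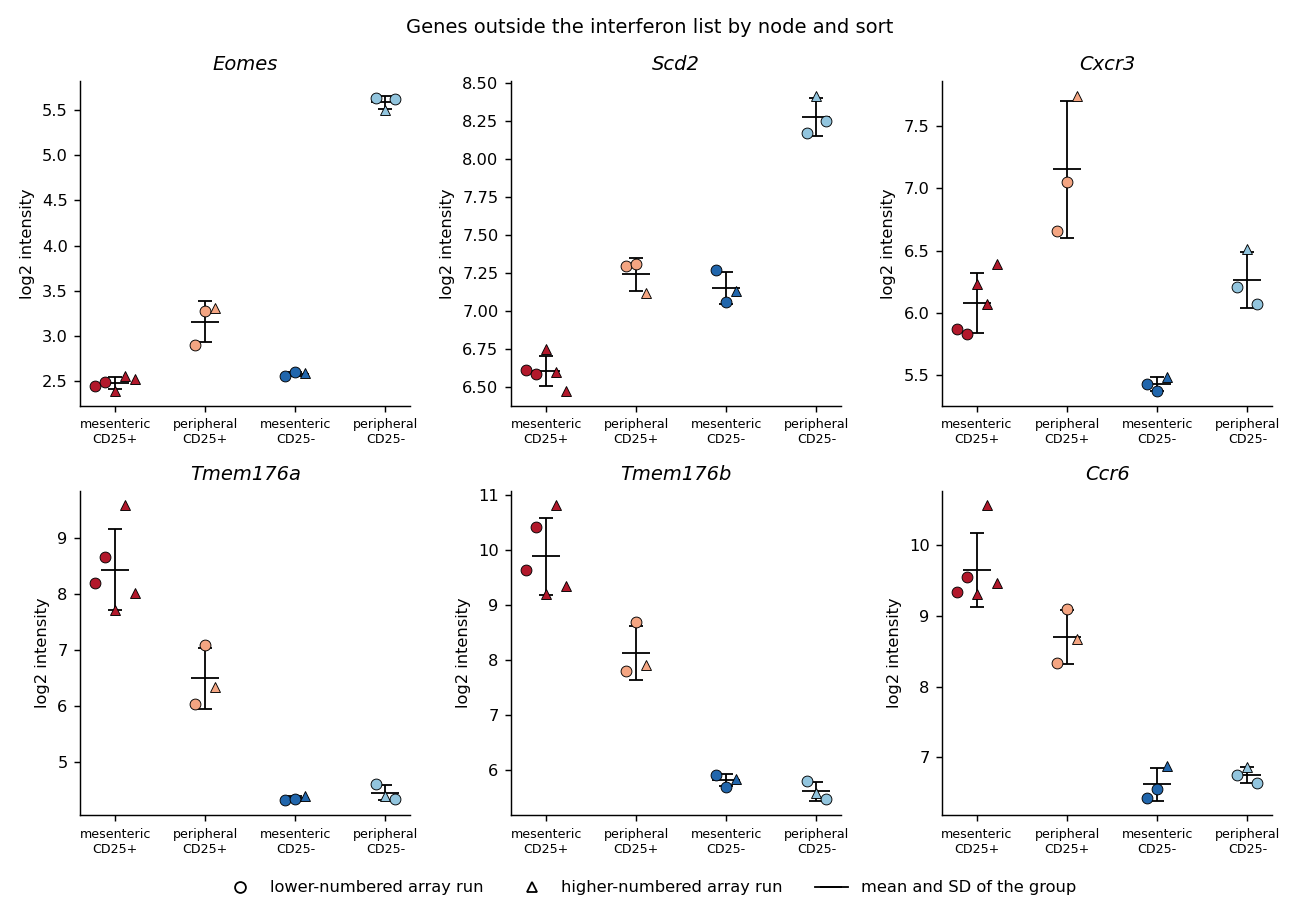
Log2 intensity of 6 genes outside the interferon list on each array, by node and sort, drawn as for the interferon genes with group means and SD. Eomes and Scd2 fell in mesenteric CD25+ cells, while the differences of Cxcr3, Tmem176a, Tmem176b and Ccr6 did not pass the threshold.

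Of the 17 measured gut-homing and retinoic acid genes, none passed, 9 had a positive difference, against 47.7% of all probe sets, and the median was 0.0066. Ccr9, the chemokine receptor for the small intestine, had a mean of 3.84 ± 0.14 in mesenteric cells (SD, n = 5) and 3.91 ± 0.09 in peripheral cells (SD, n = 3), both below the array medians. Itgb7, the integrin chain that pairs with alpha 4 for gut homing, averaged 8.50 ± 0.44 in mesenteric cells (SD, n = 5) and 8.12 ± 0.67 in peripheral cells (SD, n = 3), with a difference of 0.38 that did not pass. Dhrs3, an enzyme of retinoid metabolism induced by retinoic acid, had 5.54, 5.87, 5.76, 6.54 and 5.59 in mesenteric cells, against 4.88, 5.50 and 5.33 in peripheral cells. Its groups did not overlap, and its difference of 0.62 did not pass (adjusted p = 0.972 in limma).

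The 27 measured genes of the regulatory T cell signature differed little between sites. None passed, 11 had a positive and 16 a negative difference, against 47.7% positive of all probe sets, and the median was -0.0368. Their differences ran from -0.55 for Itgae, the integrin chain CD103, to 0.26. Itgae rested on peripheral replicate 3, which had 6.35, against 4.78 and 4.49 on the other two peripheral arrays and 4.24 to 5.40 in mesenteric cells. Without that array its difference was 0.02.

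Within the interleukin-2 and STAT5 list, 18 genes were measured and none passed. Socs3, the feedback inhibitor of cytokine receptors that act through STAT3, came nearest, with 8.47, 8.31, 8.14, 7.84 and 8.04 in mesenteric CD25+ cells, against 7.21, 6.88 and 7.58 in peripheral CD25+ cells (difference 0.93, SE 0.16, adjusted p = 0.0713 in limma). Its groups did not overlap. In CD25- cells Socs3 rose by 1.65 (adjusted p = 6.42e-04 in limma), and a second Socs3 probe set gave 0.59 in CD25+ cells.

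Cell cycle genes were mostly lower in mesenteric CD25+ cells without passing. Of 27 measured, 25 had a negative and 2 a positive difference, while 47.7% of all probe sets were positive. At an unadjusted p under 0.05, 7 were lower (2.17% of all probe sets were lower at that level), and the median was -0.213 on the log2 scale. In CD25- cells 3 of the 27 had a positive difference, against 45.9% of all probe sets, and the median was -0.369. Stmn1, which regulates microtubules, had 7.32, 7.23, 7.78, 7.52 and 7.60 in mesenteric cells, against 7.73, 8.19 and 8.85 in peripheral cells (difference -0.77, adjusted p = 0.573 in limma). Mki67, the proliferation marker, had 3.93, 3.79, 5.67, 4.78 and 4.66 in mesenteric cells, against 4.74, 5.16 and 6.04 in peripheral cells, and its groups overlapped (difference -0.75, adjusted p = 0.972). Cdc6, which loads the replicative helicase, differed by -0.64. E2f8, a repressor of the E2F family, lay below the peripheral range on every mesenteric array, at 4.56, 4.46, 5.12, 4.61 and 5.03, against 5.50, 5.54 and 6.0 on the peripheral arrays (difference -0.92, SE 0.17, adjusted p = 0.0732 in limma), but its second probe set gave -0.23. Pclaf, a partner of the replication clamp, differed by -0.85 (adjusted p = 0.419). The list mean was highest, in each group, on replicate 3.

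Of the remaining genes with small p-values, Crxos differed by -0.32, Ptbp2, a splicing regulator of neurons, by -0.45 and Mlf1 by -0.28. The other probe set of Crxos gave -0.015 and the other of Ptbp2, which is the brighter, -0.13, both with overlapping groups. The probe sets with small p-values lay near the bottom of the intensity range in both groups and did not pass. Casp1, the inflammatory caspase, differed by 0.54 and Casp8, an initiator of cell death, by 0.52, both with groups that did not overlap and neither past the threshold. Gzmk, a granzyme, and Fasl, a death ligand, lay lower on every mesenteric array, with differences of -0.36 and -0.25 that did not pass. Klf4, a transcription factor of quiescence, differed by 0.71, with 5.82 on mesenteric replicate 4 and 3.90 to 4.58 on the other mesenteric arrays. No other list held a member past the threshold when each gene was represented by its brightest probe set.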

How the data were processed

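Expression was measured on one-colour Affymetrix arrays. Per the submitters' processing notes, the lymph node values were made with RMA, with no version given. Deposited values were linear intensities, from which log2 was taken here. Labels of 1 lymph node sample name Trizol extraction and 2 rounds of amplification. Of 12488 probe sets, 66 controls were left out. The controls of the lymph node arrays are stored in another order, and they were reordered before the 3'/5' ratios (r with other arrays of the series 0.254 as stored, 0.952 reordered, across probe sets). Probe sets with 1 gene symbol numbered 10833, with several 396 and with none 1193, and 8237 of 8251 genes matched RefSeq.

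Groups followed the titles. One limma 3.58.1 fit (R 4.3.3, lmFit and eBayes, one mean per group, no covariate) over 14 lymph node arrays gave all differences, two-sided, with Benjamini-Hochberg adjustment over 12422 probe sets. Where a gene had several probe sets, the brightest stood for it in the lists. Genes were named if past the threshold without overlap, by smallest p up to 10 a direction, or by size among members of 35 lists (447 of 543 genes measured), of which a selection is given; a few were added after values were seen. Members and lists were chosen with earlier results of these data known. The number of arrays limits the precision. The fit was tested on simulated data, where it recovered 54.5% of log2 changes of -0.5 and 45.5% of those of 0.5. It recovered 79.4% of changes of -1, 93.9% of those of 1 and 100% of those of -2 and 2. Small differences can thus be missed. Alternatives covered normalization, pseudocount, filter, runs, replicate block, actin ratio and left-out arrays.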

Additional observations from a re-analysis of the deposited data

Results flagged for a closer look

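Among the genes named, 61 sets of 5 mesenteric CD25+ values, the 2 RNA ratios included, were examined for a value far from the rest, and 4 had one; chance flags about 1 in 20. Mesenteric replicate 4 stood high for Ccr6 at 10.56 (next 9.55) and for Cd74 at 8.38 (next 7.14). Mesenteric replicate 2 stood high for Ifih1 at 8.03 (next 7.57), and replicate 5 for Trgv1 at 10.19 (next 10.001). Without mesenteric replicate 2, Ifih1 still differed by 1.19. The site difference of Eomes differed between CD25+ and CD25- cells by 2.32 on the log2 scale in an interaction test (adjusted p = 1.93e-06 in limma). This was its dimmer probe set, and the brighter gave 1.26, which did not pass (adjusted p = 0.322 in limma).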

How the results depend on the processing

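As reported, 9 probe sets passed in CD25+ cells. The count was 11 with the array-number run as a block, 7 after quantile normalization, 8 after median centring, 7 above the median level, 11 with trended and robust variance and 8 within the lower-numbered run. It was 3 with the 8 CD25+ arrays alone, 3 on log2(value + 16) and 5 with the actin ratio as a covariate. With the replicate number as a block it was 12, all higher, 5 of them shared. The deviations of same-numbered CD25+ arrays, which also share an array run, correlated at 0.419, 0.164 and -0.00333, and replicates 1 and 2, but not 3, were closest to their own number, so a shared number was not taken as a pairing. Leaving out 1 array gave 2 to 21. The 56 calls in CD25- cells, an outcome whose alternatives were chosen after seeing the data, became 28 within the lower-numbered run and 36 to 55 with 1 array left out. The single interaction call became 2 with the replicate block and with trended and robust variance, 0 above the median level, where Eomes was not tested, and 1 to 2 with 1 array left out. The dimmer Eomes probe set kept its interaction call under each alternative that tested it. Within the higher-numbered run (1 peripheral array, no test) the medians were 0.389 for the type I interferon list and -0.369 for the cell cycle list, and the interferon gamma median changed sign to -0.131, as did Itgb7 at -0.0698 and Ccr9 at 0.111. With 1 array left out, Itgae ran from -0.910 to 0.0206, positive without peripheral replicate 3. Of the named genes not past the threshold, 11 passed under at least 1 alternative. The cause of these changes was not tested. Few arrays and no detection calls limit what low values such as those of Eomes can show.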

Other observations

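Other gene groups showed small differences in mesenteric against peripheral CD25+ cells, and none of their members passed the threshold. Of 13 measured NF-kB family and regulator genes, 12 had a positive difference, against 47.7% of all probe sets, with a median of 0.0944 on the log2 scale. Within the lower-numbered array run 11 of the 13 were positive (median 0.154). Within the higher-numbered run 7 were (median 0.0294, against 0.0369 over all probe sets). In CD25- cells 2 of the 13 were positive, against 45.9% of all probe sets. Of 15 genes of cytotoxic granules and killer receptors 5 had a positive one (median -0.139), and the medians were -0.0815 within the lower-numbered and -0.271 within the higher-numbered array run. Of 20 chemokine genes 4 were positive (median -0.0553), but the direction turned with the run, with a median of -0.134 in the lower and 0.101 in the higher. The 18 genes of the TGF-beta pathway, 6 of them positive (median -0.0544), turned likewise, with -0.0809 in the lower and 0.0381 in the higher. The median over all probe sets also turned, with -0.0241 in the lower and 0.0369 in the higher, so these turns are not particular to the 2 lists. The 14 genes of costimulation and coinhibition were split 7 and 7.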
